A study of Rattus norvegicus with 16 samples.

Results

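Liver transcriptomes of rats given 40 mg/kg xylazine were set against those of rats given 20 mg/kg, to describe which liver functions differed over the last doubling of the dose and which stood at the same level. The comparison used 4 animals at 40 mg/kg and 4 at 20 mg/kg, 8 of the 16 liver libraries, and 12732 of the 17544 genes in the table passed the filter on low counts and were tested. All animals were male SD rats of 160 to 200 g at the outset that received intraperitoneal injections over 28 days. Context came from 4 animals at 10 mg/kg xylazine and 4 that received saline. The labels give 4 livers per group, taken here as 4 animals, and p-values measure the spread between these samples. Neither the age nor the interval between the last injection and tissue collection is given in the sources used here.

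Xylazine is a veterinary sedative that activates alpha-2 adrenergic receptors, which dampen the release of noradrenaline and of insulin. The liver makes fatty acids from surplus carbohydrate through enzymes whose genes are driven by the transcription factor encoded by Srebf1, burns them in mitochondria and peroxisomes, and makes glucose and urea when amino acids are broken down. These programmes answer to insulin, glucagon, glucocorticoids and food intake and run on a daily rhythm.

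The 8 libraries held 16059900 to 16942600 expected counts. On the first principal component of all 16 libraries, which held 14.8% of the variance, the animals at 40 mg/kg lay between 18.0 and 24.3, against -7.24 to 14.8 for those at 20 mg/kg. Replicate 4 at 20 mg/kg, at -7.24, lay within the range of the saline animals, -21.7 to -4.54. Replicate 3 at 20 mg/kg stood apart on the first component of the 8 libraries alone, at 43.2 against -21.1 to 7.38 for the other 7. The summed level of 15 hepatocyte markers was 140000 to 153000 CPM (read counts after TMM scaling to one library size) at 40 mg/kg and 136000 to 170000 CPM at 20 mg/kg, with all 15 detected.

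No gene was called between 40 and 20 mg/kg in the main test, which does not show that the livers were alike. That test called 0 genes for 20 mg/kg against saline as well. None of the 12732 genes passed an adjusted p of 0.05 in edgeR's quasi-likelihood test, a share of 0%, and the smallest adjusted p was 0.42. Without adjustment, 688 genes had a p under 0.05, which is 5.4% of those tested. They were 340 genes higher (2.67%) and 348 lower (2.73%) at 40 mg/kg, the same genes whose 95% interval excluded 0. DESeq2 called 8 genes and limma-voom called 0. The 4 animals at 40 mg/kg did not overlap the 4 at 20 mg/kg for 410 genes, 3.22% of those tested, with 206 above (1.62%) and 204 below (1.6%).

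The intervals bound how large a difference could be missed. For 8414 genes, 66.1% of those tested, the whole 95% interval of the log2 difference lay within a 1.5-fold change in either direction, and for 10802 genes, 84.8%, it lay within a 2-fold change. The median absolute log2 difference was 0.11 for 40 against 20 mg/kg and 0.12 for 20 mg/kg against saline. In the same edgeR fit, 0 genes passed for 20 mg/kg against saline (1162, or 9.13%, at an unadjusted p under 0.05, and 60 by DESeq2), whereas 141 genes, or 1.11%, passed for 40 mg/kg against saline. Of those 141 genes, 73 had an interval for 40 against 20 mg/kg within 1.5-fold and 54 had one that excluded 0. These comparisons share animals (40 against saline and 40 against 20 share the 40 mg/kg livers, and the steps on either side of 20 mg/kg share the 20 mg/kg livers with opposite signs), so their values are set side by side and no agreement between them is counted as a result. In whole liver, a lower level can come from fewer cells of a type or from less RNA per cell, and these cannot be told apart.

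Fatty acid synthesis genes had a median near 0 between 40 and 20 mg/kg. Over the 20 genes of the list, the median log2 difference was 0.04 for 40 against 20 mg/kg and 0.64 for 20 mg/kg against saline, where the median over all tested genes was 0 in both. The first was 0.11 without replicate 3 and -0.01 without replicate 4 at 20 mg/kg. All 20 genes were higher at 20 mg/kg than in saline by point estimate, where 50.5% of all tested genes were, and 14 were higher and 6 lower at 40 than at 20 mg/kg. None passed between 40 and 20 mg/kg, 13 (65%) had an interval within 1.5-fold and 16 (80%) within 2-fold, where 66.1% and 84.8% of all tested genes did, while 7 passed as higher at 40 mg/kg than in saline, where 0.471% of all tested genes did.

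Srebf1, the transcription factor of the programme, had 420, 543, 383 and 502 CPM in the animals at 40 mg/kg and 457, 455, 494 and 307 CPM in those at 20 mg/kg. The groups overlapped, with replicate 4 at 20 mg/kg the lowest of the 8. Its mean was 183, 190, 428 and 462 CPM at 0, 10, 20 and 40 mg/kg, so that the level stood over the 10 mg/kg mean at both upper doses. The log2 difference was 0.11 for 40 against 20 mg/kg (95% interval -0.28 to 0.50), and 1.23 for 20 mg/kg against saline (0.83 to 1.63). Without replicate 4 at 20 mg/kg, the difference between 40 and 20 mg/kg was -0.02 (-0.40 to 0.36).

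The enzymes of the pathway overlapped between the doses too. Fasn, the fatty acid synthase, had 511, 1324, 692 and 556 CPM at 40 mg/kg against 703, 677, 788 and 562 CPM at 20 mg/kg, with replicate 2 at 40 mg/kg well above the other 7 animals. Its log2 difference was 0.18 (-0.44 to 0.79), and -0.22 without that animal. Fads2, a desaturase of polyunsaturated fatty acids, differed by 0.04 (-0.28 to 0.35), against 0.76 (0.45 to 1.08) for 20 mg/kg over saline. Acly, which makes cytosolic acetyl-CoA, differed by 0.04 (-0.47 to 0.55), and Acaca, the acetyl-CoA carboxylase, by 0.07 (-0.23 to 0.38). Thrsp, a regulator of lipogenesis, differed by -0.04 (-0.48 to 0.40), and Gpam, which starts glycerolipid assembly, by 0.11 (-0.36 to 0.58).

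Pnpla3, a lipid droplet protein and a known target of Srebf1, had the largest step to 20 mg/kg among the list's genes and a wide interval between the upper doses. It had 116, 186, 93.7 and 330 CPM at 40 mg/kg against 118, 188, 344 and 67.9 CPM at 20 mg/kg, spread alike in both groups. The mean was 21.6, 23.6, 180 and 182 CPM at 0, 10, 20 and 40 mg/kg. The difference between the upper doses was 0.01 with an interval of -1.17 to 1.2, so a change of 2-fold in either direction lies within its error.

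Me1, the malic enzyme that supplies NADPH for lipogenesis, was the 1 of 20 fatty acid synthesis genes with an interval above 0. Of all tested genes, 2.67% had one. It had 218, 128, 126 and 288 CPM at 40 mg/kg and 141, 108, 116 and 128 CPM at 20 mg/kg. Replicates 1 and 4 at 40 mg/kg lay above all animals at 20 mg/kg, and replicates 2 and 3 lay among them. The log2 difference was 0.62 (0.12 to 1.13, adjusted p = 0.89 in edgeR), and it was 0.35 without replicate 4 at 40 mg/kg. Lpin1, a phosphatidic acid phosphatase of triglyceride assembly, differed by -1.60 (-3.01 to -0.18), but it had 446 CPM in replicate 4 at 20 mg/kg against 68.5 to 141 CPM in the other 3, and without that animal the difference was -0.74 (-1.97 to 0.49).

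**Figure D1:**
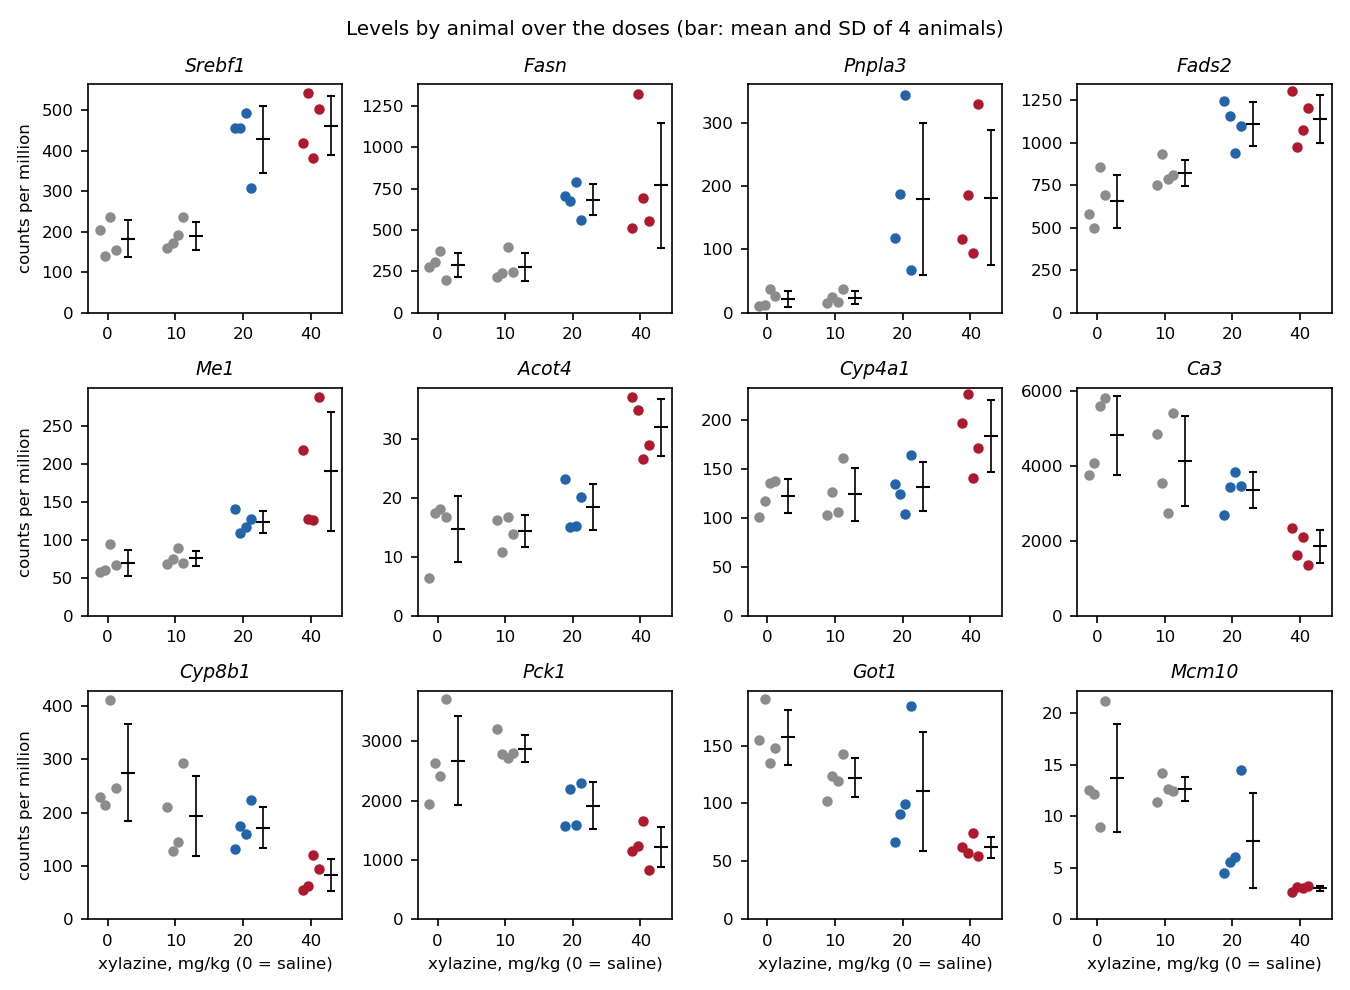
TMM-scaled read counts (CPM) of 12 genes in each animal at 0 (saline), 10, 20 and 40 mg/kg xylazine, with the mean and SD of the 4 animals beside the points on a linear axis from 0. Srebf1, Fasn, Pnpla3 and Fads2 stood at like means at 20 and 40 mg/kg, whereas Ca3, Cyp8b1, Pck1, Got1 and Mcm10 had their lowest means at 40 mg/kg and Acot4 and Cyp4a1 their highest.

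The promoters of 2 genes with like means at 40 and 20 mg/kg, Srebf1 and Pnpla3, and of 2 whose lowest level was at 40 mg/kg, Got1 and Mcm10, are shown for reference, from RefSeq on build GRCr8. Each run is the 250 bases before an annotated transcript start, 5′ to 3′ on the gene's strand, and Srebf1 has 2 starts. Capitals mark CCAAT, known as the binding site of the factor NF-Y, and GGGCGG, known as an Sp1 box, on either strand; the matches do not overlap. CACGTG, an E-box, was searched too and had 0 matches in these windows. Over all 33469 promoters in the table, the same window held CCAAT in 34.0%, GGGCGG in 30.5% and CACGTG in 5.59%, so matches of the first pair are common and describe the letters only.
Srebf1, start 1, chr10:45529165-45529414, minus strand: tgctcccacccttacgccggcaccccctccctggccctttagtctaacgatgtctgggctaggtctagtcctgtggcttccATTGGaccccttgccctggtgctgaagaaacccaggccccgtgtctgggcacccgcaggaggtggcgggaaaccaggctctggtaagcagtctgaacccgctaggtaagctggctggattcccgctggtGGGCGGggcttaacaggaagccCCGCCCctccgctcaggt
Srebf1, start 2, chr10:45519011-45519260, minus strand: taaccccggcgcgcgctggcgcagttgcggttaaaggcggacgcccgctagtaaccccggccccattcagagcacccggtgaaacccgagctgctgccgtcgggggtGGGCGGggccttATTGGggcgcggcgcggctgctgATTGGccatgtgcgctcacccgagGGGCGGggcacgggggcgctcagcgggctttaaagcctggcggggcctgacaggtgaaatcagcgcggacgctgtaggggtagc
Pnpla3, chr7:117173278-117173527, plus strand: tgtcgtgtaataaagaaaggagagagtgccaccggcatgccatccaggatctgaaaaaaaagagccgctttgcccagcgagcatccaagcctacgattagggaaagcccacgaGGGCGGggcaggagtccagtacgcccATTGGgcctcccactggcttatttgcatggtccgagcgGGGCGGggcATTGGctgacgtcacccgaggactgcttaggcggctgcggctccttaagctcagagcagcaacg
Got1, chr1:252329872-252330121, minus strand: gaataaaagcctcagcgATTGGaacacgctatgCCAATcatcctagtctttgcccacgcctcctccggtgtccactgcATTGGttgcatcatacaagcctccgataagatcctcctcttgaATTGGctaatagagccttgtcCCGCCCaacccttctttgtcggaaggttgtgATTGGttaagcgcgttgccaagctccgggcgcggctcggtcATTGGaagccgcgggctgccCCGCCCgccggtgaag
Mcm10, chr17:78175137-78175386, plus strand: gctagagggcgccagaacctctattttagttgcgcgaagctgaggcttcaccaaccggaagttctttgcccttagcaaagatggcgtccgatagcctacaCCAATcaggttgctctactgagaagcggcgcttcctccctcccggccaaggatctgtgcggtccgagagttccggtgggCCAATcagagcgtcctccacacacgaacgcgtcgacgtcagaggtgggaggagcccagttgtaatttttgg

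CCAAT was found 6 times in the Got1 window and 2 times each in those of Pnpla3, Mcm10 and the second Srebf1 start. The first Srebf1 start held 1. GGGCGG was found 2 times in each window except that of Mcm10, which held 0.

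Energy and housekeeping functions differed little between the upper doses. All 48 respiratory chain subunits had an interval within 1.5-fold, with a median difference of -0.01, and so did all 31 proteasome subunits (median 0.07) and 29 of 30 mitochondrial ribosomal proteins (median 0.05). Of the mitochondrial fatty acid oxidation genes, 18 of 24 (75%) lay within 1.5-fold, where 66.1% of all tested genes did. Their median was 0.01 (-0.05 without replicate 3 and 0.08 without replicate 4 at 20 mg/kg), and 4 of the 24 had an interval above 0, as given below. So did 3 proteasome subunits and 3 mitochondrial ribosomal proteins, where 2.67% of all tested genes had one. Cpt1a, the carnitine palmitoyltransferase that gates mitochondrial uptake, differed by -0.03 (-0.64 to 0.59). The sign of the respiratory chain median depends on scaling, from -0.02 with DESeq2 size factors to 0.03 with total counts.

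Of the 31 proteasome subunits, 28 were higher at 40 mg/kg by point estimate. In 3 further groups nearly all members had the same sign, by small amounts. Of 66 cytosolic ribosomal protein genes, 62 were higher at 40 mg/kg by point estimate, with a median of 0.12, and 63 had an interval within 1.5-fold. Some of these genes have near-identical copies among which reads may be split. Of 24 ribosome biogenesis genes, 22 were higher, with a median of 0.11. Of 29 coagulation and complement genes, 28 were lower, with a median of -0.10, and 27 lay within 1.5-fold. Over all tested genes, 6391 (50.2%) were higher and 6341 (49.8%) lower, and 66.1% lay within 1.5-fold. Members of such lists vary together within an animal, so these counts are not independent observations. Without replicate 4 at 40 mg/kg, the medians were 0.04 for ribosomal proteins, 0.02 for ribosome biogenesis and -0.09 for coagulation and complement.

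Peroxisomal oxidation and acyl-CoA thioesterase genes, known targets of the fatty acid sensor PPAR-alpha, were higher at 40 than at 20 mg/kg by point estimate in 18 of 22 members. The median log2 difference was 0.28, against 0.07 for 20 mg/kg over saline. The interval lay above 0 for 5 genes and below 0 for none, where 2.67% of all tested genes had an interval above 0, and 3 genes did not overlap, where 1.62% of all genes lay above in the same way. None passed after adjustment. In the endoplasmic reticulum unfolded protein response list, 4 of 22 genes lay above without overlap and 1 lay below. Its median was 0.11, against -0.15 for 20 mg/kg over saline, with 15 higher, 7 lower and 17 within 1.5-fold.

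Acot4, which hydrolyses peroxisomal succinyl-CoA and dicarboxylic acyl-CoAs, had 37.2, 35.0, 26.7 and 29.1 CPM at 40 mg/kg and 23.3, 15.2, 15.3 and 20.2 CPM at 20 mg/kg. All 4 animals at 40 mg/kg lay above all 4 at 20 mg/kg. The difference was 0.79 (0.24 to 1.35), and it kept an interval above 0 in each of the 16 fits that left out 1 library. Acot2, a mitochondrial acyl-CoA thioesterase, differed by 0.56 (0.15 to 0.96), with 34.8, 27.8, 25.8 and 23.9 CPM at 40 mg/kg and 19.5, 15.8, 14.6 and 26.4 CPM at 20 mg/kg. Here replicate 4 at 20 mg/kg overlapped the upper group. Cyp4a1, a fatty acid omega-hydroxylase, had 198, 227, 141 and 171 CPM at 40 mg/kg and 135, 125, 104 and 164 CPM at 20 mg/kg. The groups overlapped, and the difference was 0.48 (0.11 to 0.85), or 0.38 (-0.01 to 0.77) without replicate 3 at 20 mg/kg. Reads may be split between the near-identical Cyp4a genes.

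The same sign was seen in single genes of the mitochondrial oxidation and ketogenesis list, whose median was 0.01, with 16 genes higher and 8 lower. Of its 24 genes, 4 had an interval above 0 and 3 lay above without overlap. Over all tested genes these shares were 2.67% and 1.62%. Cpt2, the inner-membrane carnitine palmitoyltransferase, had 86.2, 104, 94.5 and 99.8 CPM at 40 mg/kg against 72.8, 63.3, 66.0 and 84.4 CPM at 20 mg/kg, without overlap, a difference of 0.43 (0.12 to 0.73). Fgf21, a hormone secreted by the fasting liver, had 3.35, 3.07, 5.37 and 8.80 CPM at 40 mg/kg and 2.66, 2.03, 2.58 and 1.54 CPM at 20 mg/kg, a difference of 1.22 (0.21 to 2.23). The groups did not overlap, and the difference was 0.83 without replicate 4 at 40 mg/kg and 1.08 (-0.05 to 2.21) without replicate 4 at 20 mg/kg. Without replicate 3 at 20 mg/kg, whose level of the peroxisomal list was the lowest of the 8 animals, the list's median was 0.16.

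**Figure D2:**
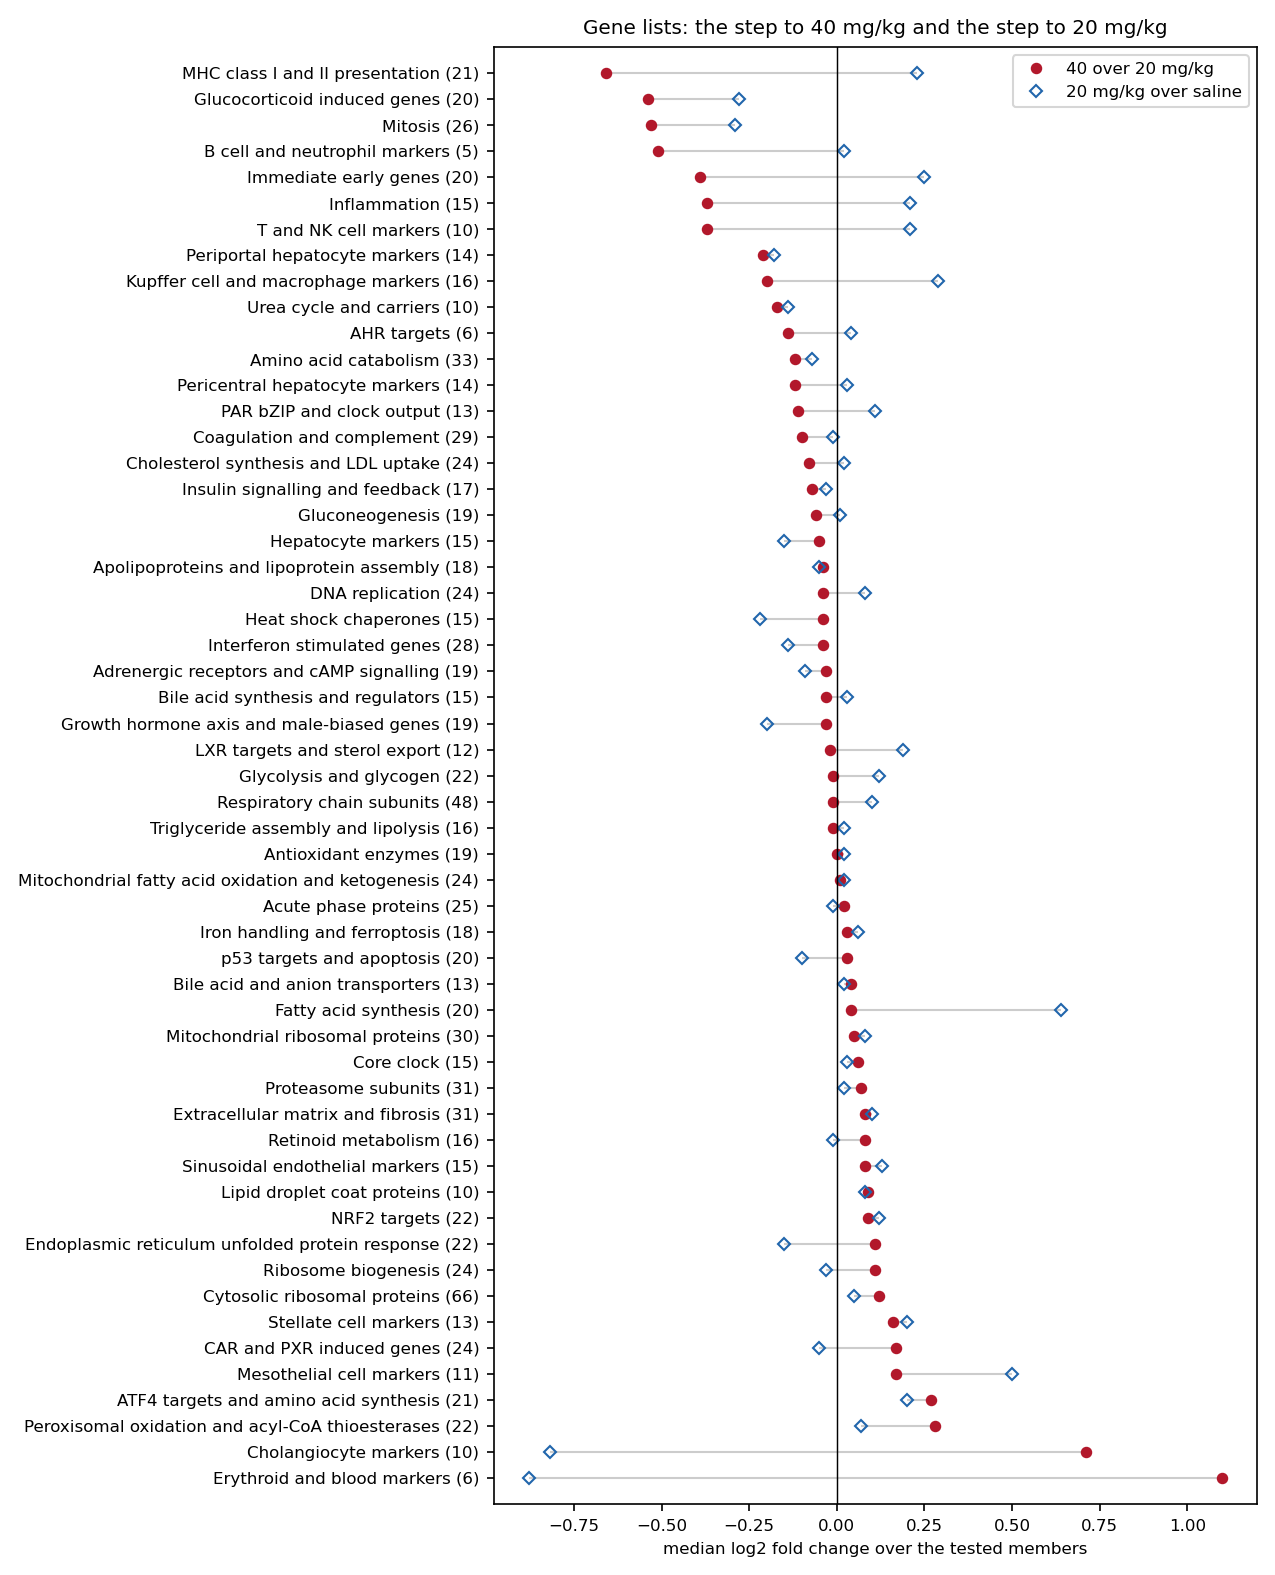
Median log2 fold change over the tested members of 55 gene lists (number of members in brackets), as filled circles for 40 over 20 mg/kg and open diamonds for 20 mg/kg over saline. Fatty acid synthesis had 0.04 and 0.64, whereas peroxisomal oxidation had 0.28 and 0.07 and the MHC list -0.66 and 0.23. The pairs share the 20 mg/kg animals.

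Enzymes that feed amino acid carbon into glucose included a few with lower values at 40 than at 20 mg/kg. Of 19 gluconeogenesis genes, 15 were lower by point estimate and 12 lay within 1.5-fold. Of all tested genes, 49.8% were lower and 66.1% lay within 1.5-fold. The list's median was -0.06, and -0.15 without replicate 3 at 20 mg/kg. Of 33 amino acid catabolism genes, 24 were lower, with a median of -0.12 (-0.02 without replicate 2 at 20 mg/kg) and 25 within 1.5-fold. Among the gluconeogenesis genes the interval lay below 0 for Pck1, Got1 and Sds, where 2.73% of all tested genes had one below 0. It lay above 0 for Pck2, the mitochondrial carboxykinase, at 0.44, where 2.67% of all genes had one above 0. In the urea cycle list, 9 of 10 genes were lower and 9 of 10 lay within 1.5-fold, with a median of -0.17 (-0.10 without replicate 2 at 20 mg/kg) and Cps1, its first enzyme, at -0.26 (-0.51 to 0.00).

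Pck1, the phosphoenolpyruvate carboxykinase of gluconeogenesis, had 1148, 1237, 1647 and 828 CPM at 40 mg/kg and 1564, 2197, 1588 and 2304 CPM at 20 mg/kg. Replicate 3 at 40 mg/kg overlapped the lower end of the 20 mg/kg group. The mean was 2672, 2877, 1913 and 1215 CPM at 0, 10, 20 and 40 mg/kg. The difference between 40 and 20 mg/kg was -0.66 (-1.10 to -0.21, adjusted p = 0.85 in edgeR), and its interval stayed below 0 in each of the 16 fits that left out 1 library.

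Got1, the cytosolic aspartate aminotransferase, had 62.2, 56.7, 74.5 and 54.8 CPM at 40 mg/kg and 66.9, 91.0, 99.6 and 184 CPM at 20 mg/kg. Replicate 4 at 20 mg/kg was the highest of the 8 animals and lay above the saline mean of 157 CPM. The difference was -0.83 (-1.34 to -0.32) with that animal and -0.47 (-0.80 to -0.14) without it. Sds, the serine dehydratase, had 3.17, 6.49, 4.39 and 2.74 CPM at 40 mg/kg against 5.92, 11.6, 15.2 and 34.4 CPM at 20 mg/kg, where replicate 4 was again the highest. Its difference was -2.0 (-3.23 to -0.77) with and -1.38 (-2.49 to -0.27) without that animal. G6pc1, which releases free glucose, overlapped widely, at -0.52 (-1.28 to 0.25), or -0.29 without replicate 1 at 40 mg/kg.

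Within bile acid synthesis, 3 of 15 genes had an interval below 0, Cyp8b1, Slc27a5 and Cyp7b1, an oxysterol hydroxylase that differed by -1.05. Over all tested genes the share with an interval below 0 was 2.73%. The list had a median of -0.03, a value whose sign turned to 0.01 with total count scaling and which was -0.12 without replicate 3 at 40 mg/kg. Cyp8b1, the sterol hydroxylase that directs synthesis to cholic acid, had 53.7, 61.6, 120 and 94.7 CPM at 40 mg/kg against 131, 174, 159 and 223 CPM at 20 mg/kg. All animals at 40 mg/kg lay below all at 20 mg/kg, and the difference was -1.06 (-1.74 to -0.38). Slc27a5, which activates bile acids for conjugation, differed by -0.61 (-1.08 to -0.13), and by -0.44 (-0.92 to 0.03) without replicate 4 at 20 mg/kg. Cyp7a1, the rate-limiting enzyme of bile acid synthesis, overlapped, at -0.65 (-2.03 to 0.74), or -0.38 without replicate 3 at 20 mg/kg.

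Of the 141 genes that passed for 40 mg/kg against saline, 21 did not overlap between 40 and 20 mg/kg, among them Ca3 and Mcm10. Over all tested genes, 3.22% did not overlap. The 141 genes were picked with the same 40 mg/kg livers, which favours such genes, so the count is not taken as a result. Ca3, a cytosolic carbonic anhydrase abundant in rat liver, had 2346, 1635, 2106 and 1371 CPM at 40 mg/kg and 2698, 3447, 3834 and 3481 CPM at 20 mg/kg. The groups did not overlap, and the mean was 4825, 4144, 3365 and 1864 CPM at 0, 10, 20 and 40 mg/kg. The difference was -0.85 (-1.32 to -0.39, adjusted p = 0.85 in edgeR and 0.038 in DESeq2). Mcm10, a DNA replication initiation factor, had 2.64, 3.13, 3.06 and 3.21 CPM at 40 mg/kg against 4.47, 5.55, 6.04 and 14.4 CPM at 20 mg/kg, again without overlap. Its difference was -1.34 (-2.07 to -0.61), and -0.83 (-1.33 to -0.34) without replicate 4 at 20 mg/kg.

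**Figure D3:**
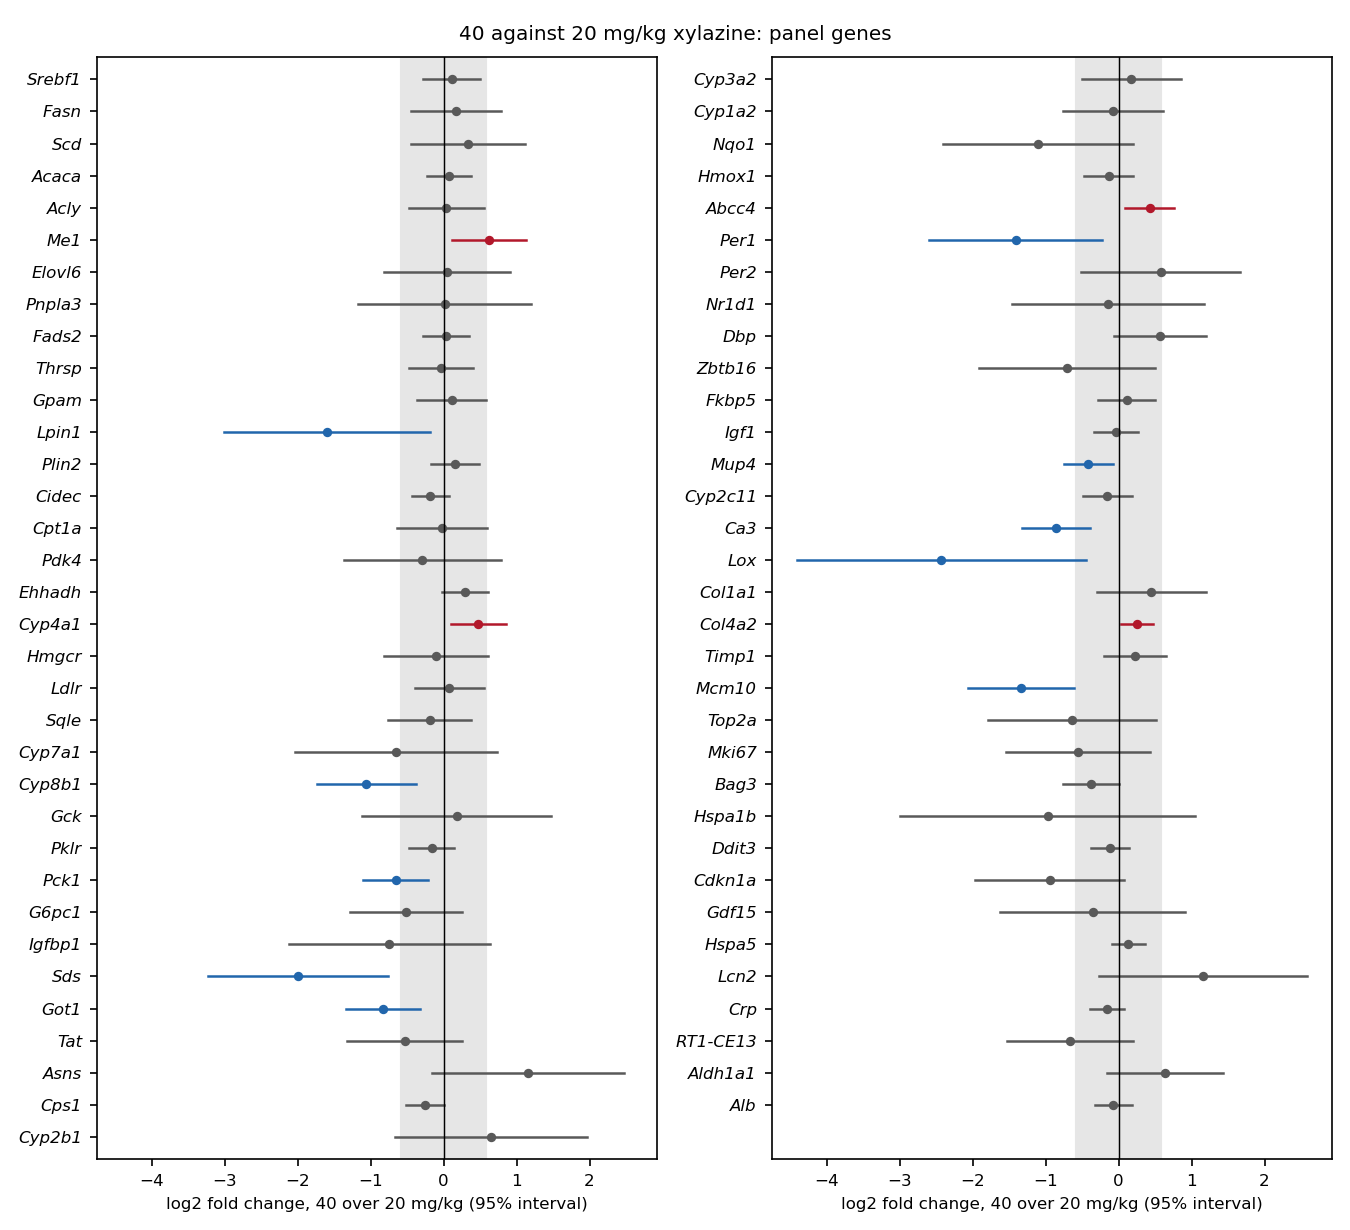
Log2 fold change of 40 over 20 mg/kg with its 95% interval for the panel genes, on a log2 axis, with 1.5-fold in either direction shaded. Intervals above 0 are red (Me1, Cyp4a1, Abcc4, Col4a2), those below 0 blue (among them Ca3, Cyp8b1, Pck1, Got1 and Mcm10), and the rest grey. No gene passed after adjustment over all genes.

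The genes of smallest p were spread over many functions. The smallest belonged to a gene known only by a placeholder symbol, LOC680406, named here after its values were seen. It had 32.9, 36.9, 41.0 and 61.0 CPM at 40 mg/kg and 111, 110, 91.2 and 111 CPM at 20 mg/kg, without overlap. Its difference was -1.30 (-1.77 to -0.83, adjusted p = 0.42 in edgeR and 6.28e-06 in DESeq2). Its saline mean was 115 CPM, so that the 20 mg/kg animals stood near the saline level.

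Among the genes higher at 40 mg/kg, Arl5a, a small GTPase of the Golgi, had 94.4, 97.4, 114 and 109 CPM at 40 mg/kg against 80.8, 74.3, 76.0 and 74.9 CPM at 20 mg/kg. The groups did not overlap, and the difference was 0.44 (0.25 to 0.62, adjusted p = 0.65 in edgeR and 0.005 in DESeq2). Slc6a13, a transporter of taurine and GABA, had 212, 200, 225 and 211 CPM at 40 mg/kg against 180, 150, 173 and 152 CPM at 20 mg/kg, also without overlap, a difference of 0.37 (0.20 to 0.55). Srm, the spermidine synthase, differed by 0.43 (0.21 to 0.66) and Galk1, the galactokinase, by 0.32 (0.16 to 0.49). The other 6 of the 10 with the smallest p, Tp53i13, Gigyf1, Tmem209, Mrps34, Adamtsl4 and Mcrip2, differed by 0.29 to 0.66.

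Among the genes lower at 40 mg/kg, Il6r, the interleukin-6 receptor, had 46.0, 57.8, 53.8 and 57.7 CPM at 40 mg/kg and 65.0, 102, 93.3 and 117 CPM at 20 mg/kg. The groups did not overlap, and the difference was -0.81 (-1.24 to -0.37). Rarres1, a retinoic acid responsive gene, had 35.1, 39.9, 35.0 and 41.9 CPM at 40 mg/kg against 57.0, 53.1, 68.9 and 71.3 CPM at 20 mg/kg, a difference of -0.72 (-1.10 to -0.34). Its mean at 20 mg/kg, 62.6 CPM, was near the saline mean of 58.0 CPM. Rnf138, a ubiquitin ligase of DNA repair, differed by -0.44 (-0.63 to -0.25) and Vps37a, a subunit of the endosomal sorting complex ESCRT-I, by -0.38 (-0.59 to -0.17).

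Genes with a difference between successive doublings of the dose were sought in the same edgeR fit, as 40 minus 20 against 20 minus 10 mg/kg. None of the 12732 passed (0%), with a smallest adjusted p of 0.77; 547 genes, or 4.3%, had an unadjusted p under 0.05, and DESeq2 called 1, Cacna2d4. Cacna2d4, an auxiliary calcium channel subunit, differed by -0.18 over the last doubling and by 0.36 over the one before. Lrrc45, a centrosome protein, differed by -0.40 and 0.39 in the same order, and Tp53i13, a p53-inducible gene, by 0.52 and -0.44. Such pairs of opposite sign share the 20 mg/kg animals. For Srebf1 the difference of the doublings was -1.06 (-1.73 to -0.40), and for Pnpla3 it was -2.92 (-4.91 to -0.92), with an adjusted p of 0.9985 in edgeR for both.

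Glucocorticoid induced and immediate early genes were mostly lower at 40 mg/kg by point estimate, with wide spread between animals. The 20 glucocorticoid induced genes had a median difference of -0.54 (16 lower, 5 with an interval below 0 and 2 with one above 0), against -0.28 for 20 mg/kg over saline, and 2 of 20 lay within 1.5-fold. Of all tested genes, 49.8% were lower, 2.73% had an interval below 0 and 2.67% one above 0, and 66.1% lay within 1.5-fold. Without replicate 4 at 20 mg/kg, the only animal of the 8 with a level above the saline mean, the median was -0.38. The members did not share a direction, since Per1, a clock gene that glucocorticoids induce, differed by -1.41 (-2.59 to -0.22), or -1.24 (-2.55 to 0.07) without replicate 4 at 20 mg/kg and -1.26 (-2.58 to 0.06) without replicate 3, and Mt1, a metallothionein, by 2.08 (0.14 to 4.01), or 0.49 without replicate 4 at 40 mg/kg. The growth hormone and adrenergic lists had medians of -0.03 each, with 8 genes higher and 11 lower in both. In the growth hormone list 2 of 19 had an interval above 0 and 1 below 0. In the adrenergic list 1 of 19 had an interval above 0 and 4 below 0. Cyp2c12, of the first list, differed by 1.55 (0.58 to 2.53). Of the second, Adra2b differed by 0.76 (0.13 to 1.38), or 0.63 (-0.04 to 1.3) without replicate 3 at 20 mg/kg. Rgs16 differed by -2.08 (-3.97 to -0.19), or -0.6 without replicate 2 at 20 mg/kg. The 20 tested immediate early genes had a median of -0.39, with 17 lower, and a level of 0.87 in replicate 2 at 20 mg/kg against -0.27, -0.01 and 0.37 in the other 3. Without replicate 2 the median was -0.22. Zbtb16, a zinc finger gene induced by glucocorticoids, overlapped between 40 and 20 mg/kg, at -0.71 (-1.91 to 0.50), or -0.34 (-1.62 to 0.94) without replicate 4 at 20 mg/kg, with means of 37.4, 66.7, 8.43 and 5.15 CPM at 0, 10, 20 and 40 mg/kg.

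Of the 15 core clock genes, Per1 was the 1 with an interval that excluded 0, where 5.4% of all tested genes had one. Arntl, the core activator, differed by -0.04 (-0.20 to 0.12). Nr1d1, the repressor that opposes it, had 0.998, 1.36, 1.04 and 1.05 CPM at 40 mg/kg against 1.75, 0.86, 0.66 and 1.66 CPM at 20 mg/kg, a difference of -0.14 (-1.46 to 1.17), against -1.92 (-3.13 to -0.71) for 20 mg/kg over saline. The 15 clock genes had a median of 0.06, with a range of -0.02 to 0.07 when 1 library of the 8 was left out, and 5 lay within 1.5-fold.

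The ATF4 list, genes of amino acid synthesis and the integrated stress response, moved with 1 animal. Its median was 0.27 over 21 genes, and -0.01 without replicate 4 at 40 mg/kg. Asns, the asparagine synthetase, had 6.87, 4.72, 5.08 and 39.9 CPM at 40 mg/kg and 10.2, 4.31, 6.43 and 4.43 CPM at 20 mg/kg, and its difference of 1.16 (-0.16 to 2.47) was -0.19 without that animal. Psat1 and Phgdh, enzymes of serine synthesis, were highest in the same animal, at 51.2 and 41.3 CPM, and their differences of 2.02 and 2.08 were 0.51 and 0.47 without it. Xenobiotic genes induced through CAR and PXR were higher at 40 mg/kg in 19 of 24, with a median of 0.17 (0.12 without that animal and 0.09 without replicate 3 at 20 mg/kg), against -0.05 for 20 mg/kg over saline. Cyp3a23-3a1, a steroid and drug hydroxylase, differed by 0.47 (0.06 to 0.88), or 0.28 without replicate 4 at 40 mg/kg and 0.35 (-0.07 to 0.77) without replicate 3 at 20 mg/kg.

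The MHC, inflammation and T and NK cell lists moved with replicate 3 at 20 mg/kg. The MHC gene RT1-CE14 and Nlrp12 of the inflammation list did not. Their differences of -0.80 (-1.25 to -0.35) and -0.70 (-1.10 to -0.31) were -0.88 (-1.36 to -0.39) and -0.82 (-1.21 to -0.43) without that animal. The 21 MHC class I and II presentation genes had a median difference of -0.66, with 19 lower, and -0.12 without that animal. RT1-Da, an MHC class II chain, had 55.2, 28.8, 31.5 and 30.1 CPM at 40 mg/kg and 42.4, 43.9, 260 and 48.3 CPM at 20 mg/kg, and its difference was -1.44 (-2.62 to -0.26) with and -0.30 (-0.87 to 0.27) without replicate 3. MHC genes of the rat are near-identical in places, so counts may be split between them. The inflammation list had a median of -0.37 over 15 genes and -0.08 without that animal, and the 10 tested T and NK cell markers had -0.37 and -0.09. The summed level of 16 Kupffer cell and macrophage markers was 601 to 840 CPM at 40 mg/kg and 623 to 1320 CPM at 20 mg/kg, where the highest value was that of replicate 3. That of 19 T and NK cell markers was 28.7 to 45.4 CPM at 40 mg/kg and 33.5 to 86.9 CPM at 20 mg/kg. No marker of either list was at 0 in all 8 animals, and the part of these cells in the MHC result was not tested.

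Mitosis genes were lower at 40 mg/kg in all 26 members by point estimate, with a median of -0.53, against -0.29 for 20 mg/kg over saline. No single interval excluded 0 and 0 of 26 lay within 1.5-fold, where 5.4% and 66.1% of all tested genes did. Mki67, a marker of cycling cells, had 2.94, 2.0, 3.64 and 5.19 CPM at 40 mg/kg and 4.29, 3.82, 8.46 and 3.63 CPM at 20 mg/kg. Replicate 3 at 20 mg/kg was the highest of the 8, and without it the list's median was -0.29 and the difference of Mki67 was -0.18, against -0.56 with it. The DNA replication list, which holds Mcm10, had a median of -0.04 whose sign turned to 0.06 with TPM, a length-scaled measure, and to 0.01 without replicate 3 at 20 mg/kg.

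**Figure D4:**
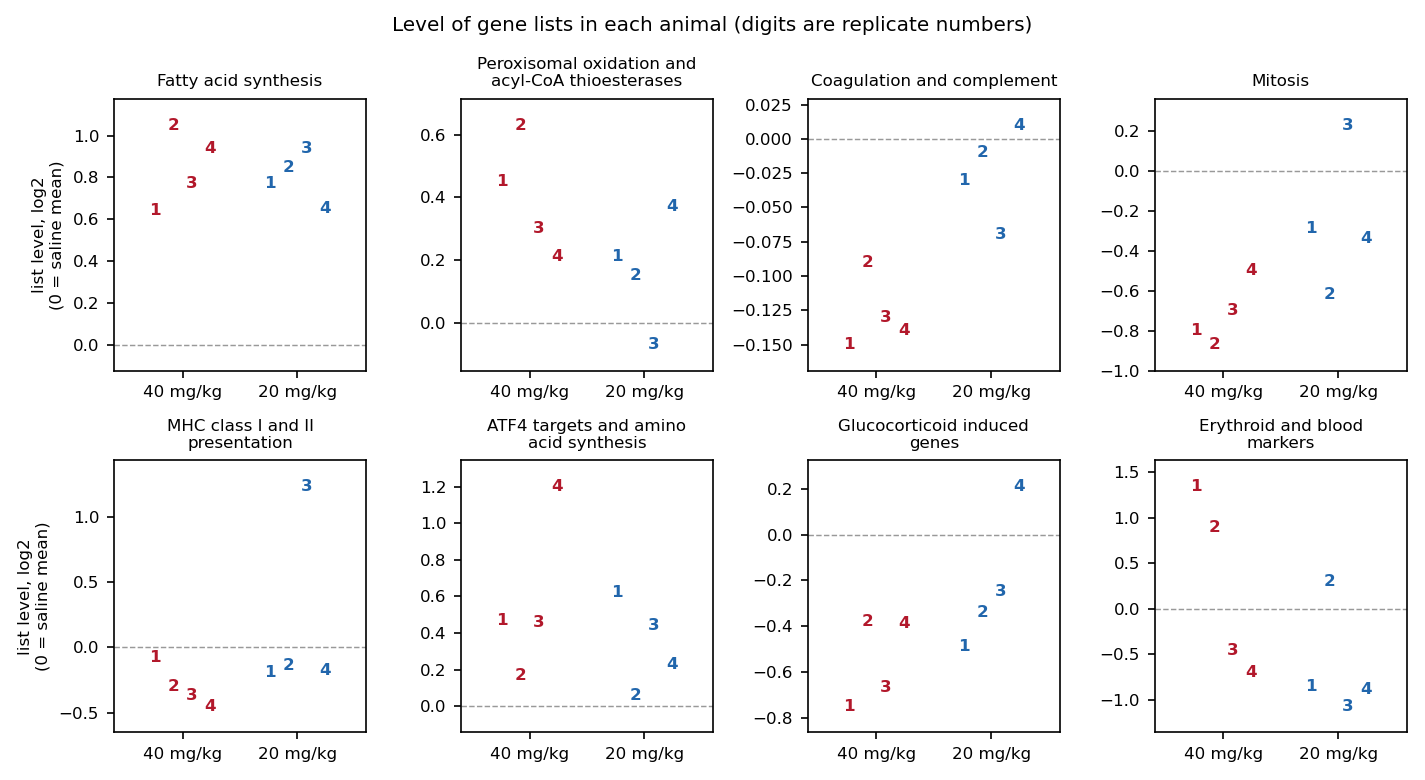
Mean log2 level of 8 gene lists in each animal relative to the saline mean (dashed line), with 40 mg/kg on the left, 20 mg/kg on the right and replicate numbers as symbols. The fatty acid synthesis levels were 0.64 to 1.05 at 40 mg/kg and 0.65 to 0.94 at 20 mg/kg, replicate 3 at 20 mg/kg held the MHC level of 1.23, and replicate 4 at 40 mg/kg held the ATF4 level of 1.2.

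Markers of other cell types varied between animals of 1 dose. The 6 tested red blood cell genes had a median of 1.10, with Hba-a1, an alpha globin, at 828, 571, 177 and 160 CPM at 40 mg/kg against 150, 351, 125 and 165 CPM at 20 mg/kg. Replicates 1 and 2 at 40 mg/kg held the high values, and the amount of blood in the tissue was not tested. Cholangiocyte markers had a median of 0.71 over 10 genes and 0.17 without replicate 2 at 40 mg/kg. Stellate cell markers were higher in 12 of 13, with a median of 0.16, and 0.02 without replicate 3 at 20 mg/kg. Pericentral hepatocyte markers had a median of -0.12, and 0.01 without replicate 4 at 40 mg/kg. Periportal markers had a median of -0.21, and -0.10 without replicate 2 at 20 mg/kg. Of matrix genes, Lox, the collagen cross-linking lysyl oxidase, differed by -2.43 (-4.41 to -0.45), but 2 animals at 20 mg/kg had 36.7 and 13 CPM and the other 2 had 1.75 and 3.96 CPM, where the animals at 40 mg/kg had 2.13 to 3.19 CPM. Without replicate 2 at 20 mg/kg the difference was -1.27.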

How the data were processed

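Liver mRNA was sequenced from 16 rats. The submitters' processing notes name Bowtie2, RSEM and DESeq2 and the build mRatBN7.2, with no roles; versions and strandedness are not given in the sources used here. The deposited table gives an expected count, a TPM and an FPKM value and a rescaled signal (a normalized read count) per gene and library, as the authors made them. The main analysis used the expected counts, rounded to whole numbers, of 17544 genes, and TPM and FPKM served as alternatives. Symbols are those of the deposited table. List symbols absent from it were looked up in the RefSeq GRCr8 table, which held 17324 of the gene numbers. Promoter sequence is on build GRCr8, which differs from that of the files.

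Genes were filtered with filterByExpr (minimum count 10, minimum total 15), scaled by TMM and fitted with edgeR's robust quasi-likelihood test over all 4 groups, with Benjamini-Hochberg adjustment over 12732 genes and a threshold of 0.05. R 4.3.3, edgeR 4.0.16, limma 3.58.1, DESeq2 1.42.0, Python 3.11.15 and matplotlib 3.10.9 were used, and the scripts were tested on simulated data. CPM are TMM-scaled. Intervals are 95%. A list's level in an animal is the mean over its members of log2 CPM minus the saline mean. At 16059900 to 16942600 counts in the 8 libraries, the fit gave a median standard error of 0.142 (log2).

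Named genes are the 10 of smallest p in each direction with at least 5 CPM in a group, the 5 in each direction with the smallest p for the difference of doublings, a panel (1 gene of which is not reported here), and the 2 members of smallest p in each list, none with a placeholder symbol; members named beyond these (Cyp7b1 and Pck2) were chosen after their values were seen. The comparison, panel and lists were chosen with earlier results of these data known. Same-numbered animals were not treated as pairs. At 40 and 20 mg/kg such animals had correlations of -0.05 to 0.03 in their deviations from the group means. The values were higher for some animals of other groups, up to 0.28 for 20 mg/kg and saline. They reached 0.11 for 40 mg/kg and saline and 0.09 for 20 and 10 mg/kg. Counts with the replicate number as a block are given below. Alternatives covered scaling, filters, DESeq2, limma-voom, TPM and FPKM with a pseudocount, and leaving out each library.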

Additional observations from a re-analysis of the deposited data

Results flagged for a closer look

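In 43 of 352 groups of 4 animals looked at, 1 animal lay apart from the other 3 of its dose, where the gap to the nearest animal, as a share of the group's range, was above Dixon's critical value for 4 samples. Chance alone gives about 1 in 20 such groups, and genes of one list vary together. The value after each gene is that share. At 40 mg/kg, replicate 1 was the highest for Derl3 (0.885), RT1-Da (0.901) and Msln (0.903) and was the lowest for Cyp7a1 (0.875) and Atp8b1 (0.913). At 40 mg/kg, replicate 2 was the highest for Nr1d1 (0.856), Lcn2 (0.903), Slc27a5 (0.855), Arnt (0.859), Dnajb1 (0.894) and Prom1 (0.932). At 40 mg/kg, replicate 3 was the highest for Timd4 (0.851) and was the lowest for Tmem209 (0.873). At 40 mg/kg, replicate 4 was the highest for Pdk4 (0.868), Asns (0.939), Hspa1b (0.956), Psat1 (0.869), Phgdh (0.857), Abcc3 (0.968), Mt2A (0.879) and Slc3a2 (0.901). At 20 mg/kg, replicate 1 was the highest for Tp53i13 (0.895) and Abcg5 (0.903) and was the lowest for Cps1 (0.838). At 20 mg/kg, replicate 2 was the highest for Apom (0.885), Nop16 (0.857) and Bco2 (0.844). At 20 mg/kg, replicate 3 was the highest for Klri1 (0.841), Thrsp (0.975), Mki67 (0.863), Bag3 (0.837), Gbp5 (0.89), Gbp2 (0.972), RT1-Ba (0.947), RT1-Da (0.973), Kif11 (0.837), Timd4 (0.889) and Ncf1 (0.909) and was the lowest for Zfp867 (0.863), Scd (0.853) and Alb (0.841). At 20 mg/kg, replicate 4 was the highest for Mcm10 (0.842) and Krt19 (0.914).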

How the results depend on the processing

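For 40 against 20 mg/kg, 0 genes passed under the alternatives run except 8 with DESeq2, 1 with the compared groups alone, 1 with the replicate number as a block, and 0 to 1 when 1 library was left out (1 without 10 mg/kg replicate 4). The replicate block also gave 1 gene for the difference of doublings, where DESeq2 gave 1 and leaving out a library gave 0. With the block, 105 genes passed for 40 mg/kg against saline in place of 141 (47 higher and 58 lower), and 0 passed for 20 mg/kg against saline and for 20 against 10 mg/kg. For 20 mg/kg against saline, DESeq2 gave 60, an adjusted p under 0.1 gave 2, leaving out replicates 3 and 4 at 20 mg/kg together (chosen after seeing the data) gave 1, and leaving out 1 library gave 0 to 19, with 19 without 20 mg/kg replicate 4. For 40 mg/kg against saline, the 141 genes became 523 with DESeq2, 450 at an adjusted p under 0.1, 43 with an absolute log2 of at least 1, and 27 to 198 with 1 library left out (27 without saline replicate 1). Their split of 60 higher and 81 lower was 91 and 50 with total count scaling, 128 and 46 with TPM plus 1, and 88 and 57 with FPKM plus 1. For 20 against 10 mg/kg, 0 became 1 with no filter, 4 with a stricter filter, 35 with DESeq2, 4 at an adjusted p under 0.1 and 0 to 6 with 1 library left out. The share of genes within 1.5-fold was 48.1% with no filter, 83.3% with the stricter filter and 61.3 to 65.7% with 1 library left out, and within 2-fold 81.3 to 84.6%. Of the list medians, 1562 alternatives stayed within the SD of the list level over the 20 mg/kg animals, and 33 moved. An animal that stands apart at 20 mg/kg widens that SD. For single genes, 5001 alternatives stayed without a call and within the gene's SD within groups, whatever their sign. A further 6 passed newly and 48 moved. The causes were not tested.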
